A study of Mus musculus with 3 samples.

Results

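The genes described here are 10 chaperones that fold proteins in the cytosol and in mitochondria, Hsp90aa1, Hsp90ab1, Hspa8, Hspa4, Hsph1, Dnaja1, Dnajb1, Hspa9, Hspd1 and Hspe1. They were taken by name from the 55450 genes of GENCODE M21, and all 10 are among its 21951 protein-coding genes. Binding of the transcription factor NF-Y and the histone mark H3K4me3 were measured at them in mouse cortices of E13.5 embryos by ChIP-seq. The series has 3 libraries, 1 each of input, NF-Y-ChIP (with an antibody against its NF-YC subunit) and H3K4me3-ChIP, and the labels give no genotype, strain or treatment for any of them. A peak was assigned to a gene, by the rule of the study, when it lay inside the gene or within 5 kb upstream. Fold enrichment is the signal at the summit of a peak over the local background, and rank 1 is the highest fold enrichment of a list. Positions are on GRCm38, sequences are from RefSeq for that build, and distances are from the start of 1 representative protein-coding transcript per gene, negative upstream.

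Chaperones bind unfolded segments of other proteins and release them in cycles driven by ATP, with J-proteins and nucleotide exchange factors as partners of HSP70. NF-Y is a trimer of NF-YA, NF-YB and NF-YC that binds the pentamer CCAAT, read from the other strand as ATTGG, which is frequent just upstream of transcription starts. Many chaperone genes are also controlled by heat shock factor HSF1, which binds heat shock elements, arrays of GAA and TTC units. H3K4me3 marks the promoters of active and poised genes.

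Both peak lists come from whole cortex, so cells of different types cannot be told apart, and 1 library per antibody leaves no replicate error. The NF-Y-ChIP list used here held 733 peaks and the H3K4me3-ChIP list 18816, and ranks and counts refer to these lists. For the labelled tissue, an H3K4me3-ChIP peak lay within 1 kb of the start of the cortical genes Emx1 (41.0-fold), Pax6 (38.3-fold), Sox2 (30.1-fold), Tbr1 (21.2-fold) and Neurod6 (4.61-fold), among others. Of genes of other cells and organs, both ventral genes (Dlx1, Dlx2), 1 of 2 endothelial, 1 of 2 erythroid, 1 of 2 meningeal, 0 of 2 microglial and 0 of 6 other-organ genes had one.

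None of the 10 chaperone genes had an NF-Y-ChIP peak, and all 10 had an H3K4me3-ChIP peak. Over all genes, the same rule gave an NF-Y-ChIP peak to 1.88%, and over protein-coding genes to 3.69%. Where a protein-coding gene also had an H3K4me3-ChIP peak, the share was 5.6%. A stricter comparison uses only the 1 kb on either side of the representative start. An H3K4me3-ChIP peak lay within that distance at all 10 genes and at 59.7% of protein-coding genes (13048 of 21853, here called marked promoters). None of the 10 had an NF-Y-ChIP summit there, against 4.83% of marked promoters. With shares of this size, a count of 0 among 10 genes does not set these genes apart from other marked genes. For H3K4me3-ChIP the shares were 34.4% of all genes and 65.4% of protein-coding genes. The NF-Y-ChIP list reached down to a fold enrichment of 1.46, and weaker signal than its threshold cannot be seen in it.

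The NF-Y-ChIP peaks nearest to the chaperone genes were mostly far away. No distances at other genes are given for comparison, so this is not shown to be particular to these genes. The nearest of all had its summit at -13.6 kb from the start of Dnajb1 (5.91-fold, rank 461). This summit was at -65 bp from a start of the neighbouring gene Tecr, an enzyme of fatty acid elongation, at chr8:83594457-83594699. For Hspa9 the nearest NF-Y-ChIP peak was 22.1 kb away (6.79-fold) and for Hsp90aa1 105 kb away (6.68-fold). The other 7 genes had none within 583 kb, and for Hspa8 the distance was 4033 kb.

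The promoters were then searched for CCAAT or ATTGG in the 250 bp upstream of the start. It was present at 5 of the 10 genes, Hsp90ab1, Hspa8, Hsph1, Dnajb1 and Hspd1, and at 35.6% of 21853 protein-coding promoters. Of the marked promoters, 4567 of 13048 had the pentamer. Of the 630 marked promoters with NF-Y-ChIP by the 1 kb criterion, 85.7% had it and 60.6% had at least 2. In the extended form of the site, CCAAT follows a pair of purines and precedes C or G and then a purine. This form was at 3 of the 10 genes, Hspa8, Hsph1 and Dnajb1, at 13.9% of marked promoters, and at 64.0% of those with an NF-Y-ChIP summit.

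Hspa8 encodes the constitutive cytosolic HSP70 (HSC70) and Hspa5 its counterpart in the endoplasmic reticulum (ER), BiP. The 200 bases upstream of each start are shown because 1 promoter lacked an NF-Y-ChIP peak and the other had one, as did the other 2 ER promoters shown, which were chosen for it, with CCAAT or ATTGG in capitals. They are chr9:40800784-40800983 (plus strand) for Hspa8 and chr2:34771770-34771969 (plus strand) for Hspa5.
Hspa8: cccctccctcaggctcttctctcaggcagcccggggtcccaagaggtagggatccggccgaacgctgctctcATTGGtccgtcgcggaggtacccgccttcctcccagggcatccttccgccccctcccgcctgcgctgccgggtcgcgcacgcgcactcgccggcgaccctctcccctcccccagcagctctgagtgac
Hspa5: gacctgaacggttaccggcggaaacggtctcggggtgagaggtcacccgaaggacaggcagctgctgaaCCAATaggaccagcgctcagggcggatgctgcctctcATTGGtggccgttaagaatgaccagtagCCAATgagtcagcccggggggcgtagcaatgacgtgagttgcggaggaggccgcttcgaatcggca
Hspa8 had 1 pentamer, with its first base at -128 bp, and no NF-Y-ChIP peak. Hspa5 had 3, and its NF-Y-ChIP peak at chr2:34771773-34772117 was 12.4-fold enriched (rank 79) with the summit at 15 bp. Both genes had an H3K4me3-ChIP peak, of 38.8-fold at Hspa8 and 72.7-fold at Hspa5. Of the other HSP70 genes, Hspa9, which encodes mitochondrial mortalin, had no pentamer in the 250 bp, and its nearest one began at -426 bp. Hspa4, a member of the HSP110 group that exchanges nucleotide on HSP70, had none within 1 kb upstream.

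Hsp90ab1 encodes the constitutive cytosolic HSP90 beta and Hsp90b1 the ER form, GRP94. The 200 bases upstream are on the minus strand at chr17:45573272-45573471 for Hsp90ab1 and at chr10:86705510-86705709 for Hsp90b1, with the pentamers in capitals.
Hsp90ab1: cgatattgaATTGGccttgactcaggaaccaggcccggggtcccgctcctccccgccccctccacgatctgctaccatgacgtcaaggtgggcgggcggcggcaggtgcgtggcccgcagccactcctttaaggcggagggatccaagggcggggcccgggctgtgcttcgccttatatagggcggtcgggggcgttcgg
Hsp90b1: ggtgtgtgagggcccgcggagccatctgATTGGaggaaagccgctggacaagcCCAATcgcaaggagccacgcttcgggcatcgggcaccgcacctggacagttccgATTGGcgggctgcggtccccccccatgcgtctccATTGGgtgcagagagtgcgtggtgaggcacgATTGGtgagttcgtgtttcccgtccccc
Hsp90ab1 had 1 pentamer, at -191 bp and not in the extended form. Hsp90b1 had 5 and an NF-Y-ChIP peak of 8.24-fold (rank 215), with its summit at -85 bp, which the rule also assigned to Ttc41 and Gm25745. Hsp90aa1, the stress-inducible HSP90 alpha, had no pentamer in 250 bp, and its nearest one began at -624 bp. The H3K4me3-ChIP fold enrichment was 82.0 at Hsp90ab1, 62.8 at Hsp90aa1 and 37.5 at Hsp90b1, so in this family the gene with the NF-Y-ChIP peak had the lowest value.

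The J-proteins stimulate the ATPase of HSP70. Dnajb1 (HSP40) had the promoter with the most extended sites among the 10 genes. Its 200 upstream bases are chr8:83607993-83608192 (plus strand). For the ER J-protein gene Dnajb11, the part of the upstream region free of annotated exons is chr16:22857670-22857844 (plus strand).
Dnajb1: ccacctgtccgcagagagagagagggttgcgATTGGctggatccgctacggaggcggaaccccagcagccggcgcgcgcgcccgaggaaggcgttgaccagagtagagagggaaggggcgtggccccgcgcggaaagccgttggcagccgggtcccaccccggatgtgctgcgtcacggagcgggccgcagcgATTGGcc
Dnajb11: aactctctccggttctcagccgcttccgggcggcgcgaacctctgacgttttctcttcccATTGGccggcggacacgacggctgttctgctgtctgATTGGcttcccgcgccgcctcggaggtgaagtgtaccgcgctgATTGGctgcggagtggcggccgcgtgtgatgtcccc
Dnajb1 had 2 pentamers, at -169 and -7 bp, both in the extended form, and no NF-Y-ChIP peak. Among the 334 marked promoters with 2 or more extended sites, 43.4% had a nearby NF-Y-ChIP summit by the same criterion (Wilson 95% confidence interval 38.2 to 48.8%), and Dnajb1 was among those without. Dnajb11 had 5 pentamers in 250 bp, 3 of which are in the stretch shown, and an NF-Y-ChIP peak of 16.2-fold (rank 39), also assigned to Tbccd1. Dnajb1 lies head to head with Tecr, whose annotated 5′ end is 221 bases away, but the NF-Y-ChIP peak of Tecr covered its representative start, 13715 bases from that of Dnajb1. Dnaja1, a J-protein of the other cytosolic class, had no pentamer in 250 bp and 1 at -265 bp.

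Hsph1 encodes HSP105, an HSP110 protein that acts as a nucleotide exchange factor. It was the other gene with 2 pentamers, at -114 bp in the extended form and at -45 bp. The bases from -130 to -39 bp, at chr5:149636377-149636468 on the minus strand, hold both.
Hsph1: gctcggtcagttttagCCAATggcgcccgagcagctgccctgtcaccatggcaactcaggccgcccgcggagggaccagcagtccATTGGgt
Its ER counterpart Hyou1 also had 2 pentamers and no NF-Y-ChIP peak, and Canx, a lectin chaperone of the ER, had 3 and no peak. Hspd1 and Hspe1 encode the mitochondrial chaperonin HSP60 and its lid HSP10. Hspd1 had 1 pentamer, at -218 bp, which lies inside Hspe1, and Hspe1 had none.

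Over all marked promoters, the share with NF-Y-ChIP by that criterion was higher with more pentamers in 250 bp. Intervals here are Wilson 95% intervals, and they cover the sampling of promoters only. The share was 1.06% of 8481 promoters with none (interval 0.864 to 1.30%), the class of Hsp90aa1, Hspa4, Dnaja1, Hspa9 and Hspe1. It was 5.36% of 2949 promoters with 1 (4.60 to 6.23%), the class of Hsp90ab1, Hspa8 and Hspd1. It was 16.8% of 1068 promoters with 2 (14.6 to 19.1%), the class of Hsph1 and Dnajb1. In the class with 3 or more it was 36.9% of 550 promoters (33.0 to 41.0%), and no chaperone gene of the 10 was in it. So in the class of every one of the 10 genes, most marked promoters had no NF-Y-ChIP summit. The share also differed by H3K4me3-ChIP fold enrichment. It was 1.72% in the lowest quartile of marked promoters, which held none of the 10 genes, and 4.66% in the next, which held Hspa8, Hspa4 and Dnaja1. It was 6.10% in the third, with Hsph1, Dnajb1 and Hspa9, and 6.84% in the highest, with both cytosolic HSP90 genes, Hspd1 and Hspe1. Where the pentamer began only further upstream than -100 bp, as at Hsp90ab1, Hspa8 and Hspd1, the share was 4.71% (3.82 to 5.80%). Where 1 began from -100 to -5 bp, as at Hsph1 and Dnajb1, it was 16.3% (15.0 to 17.7%). These classes also differ in the number of sites. Promoters with exactly 1 site were therefore split by its position into windows of 50 bp. From the window farthest from the start to the nearest, the share was 3.46% (the window of Hspd1), 2.87% (Hsp90ab1), 2.95% (Hspa8), 5.98% and 9.82%.

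**Figure D1:**
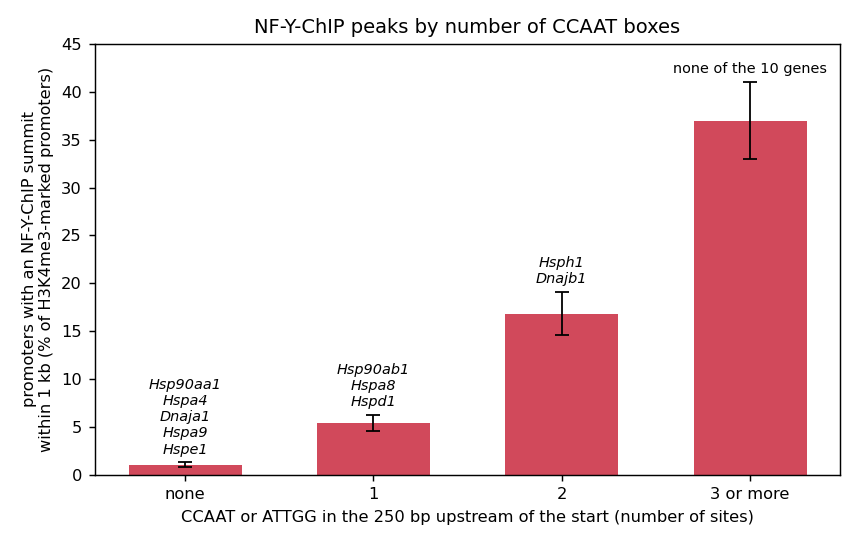
Share of H3K4me3-marked promoters that had a summit of NF-Y-ChIP within 1 kb (vertical axis, percent, bars with Wilson 95% intervals) by the number of CCAAT or ATTGG sites in the 250 bp upstream of the start (horizontal axis), with the chaperone genes of each class named above its bar. The share runs from 1.06% with no site to 36.9% with 3 or more, and the 10 genes fall in the classes with 0, 1 and 2 sites.

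The H3K4me3-ChIP peaks of the chaperone genes differed in strength and width. Because Hspd1 and Hspe1 share 1 peak, the strongest peaks of the 10 genes are 9 peaks. Their median fold enrichment was 46.4 (range 30.1 to 82.0), against 27.5 over all H3K4me3-ChIP peaks and 39.6 for the strongest peak of each marked promoter. Their median width was 2105 bp (range 1751 to 2792 bp), against 1098 bp over all peaks and 1405 bp for the widest peak of each marked promoter. All 9 were therefore wider than the median marked promoter, and 6 of them, at 7 genes, were above its median fold enrichment.

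Hsp90ab1 had the strongest peak, 82.0-fold at chr17:45571902-45574693, which ranked 66 of 18816 and was 2792 bp wide. The shared Hspd1 and Hspe1 peak at chr1:55086538-55089073 followed with 68.3-fold (rank 793, 2536 bp wide), and that of Hsp90aa1 with 62.8-fold (rank 1437, 1760 bp wide). These 3 peaks, at both cytosolic HSP90 genes and the mitochondrial chaperonin pair, stood above the rest. The Hsph1 peak at chr5:149634905-149637211 was 50.01-fold (rank 3631). The Hspa9 peak at chr18:34953487-34955500 was 46.4-fold (rank 4533), and the Dnajb1 peak at chr8:83607456-83609393 was 44.6-fold (rank 4997). Below the median marked promoter were the stronger Hspa8 peak with 38.8-fold (rank 6513), the Dnaja1 peak at chr4:40721892-40723996 with 35.6-fold (rank 7301) and the Hspa4 peak at chr11:53299038-53301228 with 30.1-fold (rank 8702). Hspa4 was thus the weakest of the 10 genes, at percentile 33.2 of the marked promoters. The deposited lists give no error for a fold enrichment, so whether neighbours in this order differ cannot be tested.

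**Figure D2:**
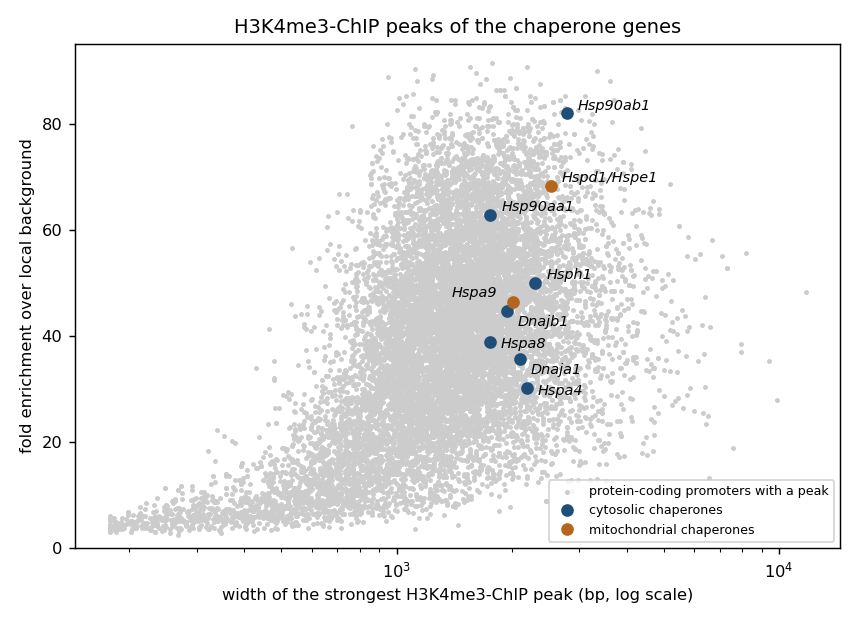
Fold enrichment (vertical axis) against width (horizontal axis, bp on a log scale) of the strongest H3K4me3-ChIP peak of each gene, with the 13048 marked protein-coding promoters in grey. The chaperone peaks lie between 1751 and 2792 bp in width and spread from 30.1-fold (Hspa4) to 82.0-fold (Hsp90ab1).

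The position of the mark relative to the start also varied. The summit of the strongest peak was downstream of the start at 9 of the 10 genes, from 240 bp at Hsp90ab1 to 643 bp at Dnaja1, and it was upstream at 16.5% of marked promoters. The median over marked promoters was 203 bp (interquartile range 108 to 337 bp). At Hspe1 it was at -430 bp, since the summit of the shared peak lies inside Hspd1, 322 bp downstream of the start of that gene. The starts of Hspd1 and Hspe1 are 107 bases apart, and the peak reached 1486 bp into Hspd1 and 941 bp into Hspe1.

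Hspa8 was the only one of the 10 genes whose representative start lay outside its H3K4me3-ChIP peaks. One peak, 22.3-fold at chr9:40799849-40800927, ended 57 bp upstream of the start, and the other, 38.8-fold at chr9:40801099-40802849, began 115 bp downstream. The gap between them was 171 bp. Over marked promoters, 93.4% of starts were inside a peak, and 0.789% (103 promoters) lay, as at Hspa8, between 2 peaks within 1 kb. The pentamer of Hspa8 at -128 bp lay inside the upstream peak.

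Hsp90aa1 has an annotated protein-coding transcript that begins at -6333 bp, and no H3K4me3-ChIP peak covered that start. The nearest was a weak peak of 6.77-fold (rank 15680) at chr12:110706715-110707146, 3987 bp upstream of it and assigned to Hsp90aa1 by the rule. The main peak, at chr12:110695327-110697086, covered the downstream starts used here as representative and those at 106, 137, 444 and 723 bp. Several peaks were also assigned to genes beside the chaperones, by the same rule. These were Tecr for the Dnajb1 peak, the lincRNA Gm20005 for the Hsph1 peak, Gm12390, Gm6297 and Mir207 for the Dnaja1 peak, and the small nucleolar RNA genes Snord14c, Snord14d and Snord14e for both Hspa8 peaks.

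**Figure D3:**
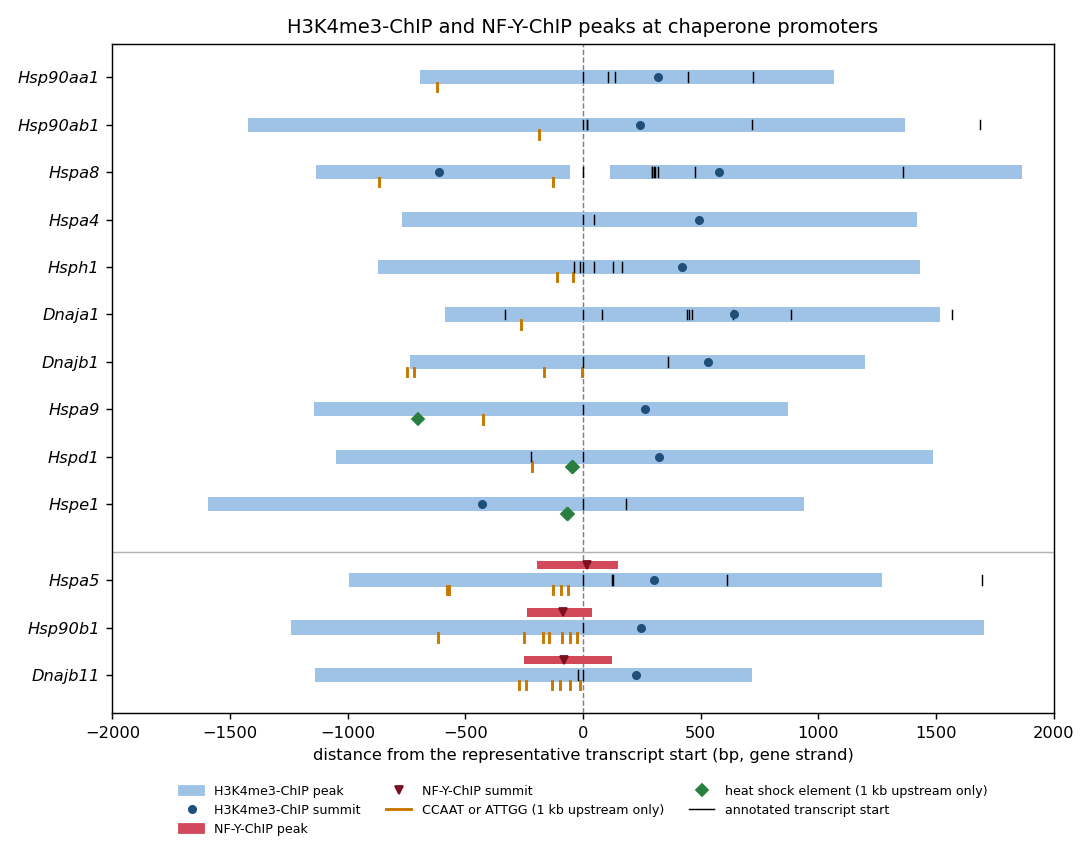
H3K4me3-ChIP peaks (blue bars, summits as dots) and NF-Y-ChIP peaks (red bars, summits as triangles) by distance from the representative start (horizontal axis, bp on the gene strand) at the 10 chaperone genes and, below the line, at 3 ER chaperone genes. Orange ticks mark CCAAT or ATTGG and green diamonds heat shock elements in the 1 kb upstream, and black ticks mark annotated starts. Red bars appear only at the ER genes, and the start of Hspa8 falls in a gap between its blue bars.

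Heat shock elements were searched in the 500 bp upstream as 3 alternating GAA and TTC units, starting with either, with any 2 bases between units. Only Hspd1 and Hspe1 had one without a mismatch, against 0.856% of all 21853 protein-coding promoters. Both genes share it, since it lies in the 107 bases between their starts. It has 4 successive units, shown in capitals at chr1:55088053-55088082 on the plus strand, from -79 to -50 bp of Hspe1.
Hspe1: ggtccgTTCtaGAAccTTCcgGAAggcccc
With 1 mismatch allowed in the 9 fixed bases, Hsp90ab1, Hsph1 and Dnaja1 also had an element, as did 11.4% of all promoters. The elements of Hsph1 (minus strand, chr5:149636346-149636375) and Dnaja1 (plus strand, chr4:40722331-40722360) are shown with the units in capitals, since these lay within 250 bp of the start. In each, the unit CTC stands in place of TTC.
Hsph1: gaatctTTCtcGAAggCTCgaGAAgaagga
Dnaja1: aaaaaagcCTCtaGAAaaTTCtacgaggct
Hsp90aa1, Hspa8, Hspa4, Dnajb1 and Hspa9 had no element in 500 bp under either setting. The 3 stretches shown overlap exons of transcripts that begin further upstream. These matches describe the reference sequence only, and HSF1 was not measured here. The GC box (GGGCGG or CCGCCC) was in the 250 bp upstream of 9 of the 10 genes, all except Hspa4, and of 61.9% of marked promoters. The letters TATAAA on the gene strand in the last 50 bp were at 0 of the 10 genes and at 1.23% of marked promoters. Only this exact string was searched, so related strings, such as TATATA in the Hsp90ab1 sequence above, were not counted. The 250 bp upstream had a GC content from 60.4% at Hsph1 to 76.0% at Hspe1, against a median of 60.8% over marked promoters.

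A list of 63 further genes of the cytosolic and mitochondrial chaperone system was compared in the same way. An NF-Y-ChIP peak was assigned to 5 of them and an H3K4me3-ChIP peak to 58. Over protein-coding genes the shares were 3.69% and 65.4%, as above. The 5 genes were Hscb, Hspb6, Pfdn6, Hsf2 and Dnajb5. Hscb, a mitochondrial J-protein of iron-sulfur cluster assembly, had the strongest NF-Y-ChIP peak, 16.8-fold (rank 34) with the summit at -148 bp, and it shares this peak with Chek2. Hspb6, a small heat shock protein, had a peak of 6.93-fold (rank 337, summit at -848 bp), shared with Proser3 and Gm38670. Pfdn6, a prefoldin subunit, had one of 5.25-fold (rank 554, summit at -317 bp), shared with Wdr46. Hsf2, a heat shock factor, had one of 4.65-fold (rank 626, summit at -209 bp), shared with 4930467K11Rik. Dnajb5, a cytosolic J-protein, had one of 2.97-fold (rank 725, summit at -603 bp). The −log10 q-value of the Dnajb5 peak, 0.0267, did not reach the q < 0.05 set for H3K4me3-ChIP. Each of these 5 peaks had the pentamer within 50 bp of the summit, as did 646 of all 733 NF-Y-ChIP peaks, and overlapped an H3K4me3-ChIP peak, as did 645 of the 733.

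By role, no NF-Y-ChIP peak was assigned to the 8 HSP70 and HSP110 genes, the 10 genes of the HSP90 system, the 6 nucleotide exchange factors or the 8 subunits of the cytosolic chaperonin TRiC. The 8 J-proteins, 6 prefoldin subunits, 6 mitochondrial proteases and helpers, 8 small heat shock proteins and the group of Hsf1, Hsf2 and the HSF-binding protein gene Hsbp1 had 1 each. Hscb, though a J-protein, was counted here among the mitochondrial proteases and helpers. The 5 genes without an H3K4me3-ChIP peak were all small heat shock protein genes, Hspb1, Hspb2, Hspb3, Hspb7 and Cryaa, of 8 in the list. The stress-inducible HSP70 genes Hspa1a and Hspa1b had H3K4me3-ChIP peaks of 14.0-fold and 16.3-fold, the former also assigned to Hspa1l. These 2 genes are near-identical copies, so reads can be split between them and both values are uncertain. The median H3K4me3-ChIP fold enrichment was 48.2 over the 10 chaperone genes, with the shared peak counted for both of its genes. It was 45.4 over the 58 genes of the further list to which the rule assigned an H3K4me3-ChIP peak.

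Of 14 chaperones and folding enzymes of the ER, 8 had an NF-Y-ChIP peak, from 3.71-fold at P4hb to 16.2-fold at Dnajb11, against 3.69% of protein-coding genes and 5.6% of those with an H3K4me3-ChIP peak. The P4hb peak, with a −log10 q-value of 1.16, did not reach q < 0.05, and those of the other 7 genes did. The pentamer was in the 250 bp upstream of 13 of these 14 genes and of 5 of the 10 cytosolic and mitochondrial genes. It was in 35.6% of all protein-coding promoters. Of the genes with the pentamer, 7 of the 13 ER genes and 0 of the 5 others had an NF-Y-ChIP peak. For comparison, 540 of the 4567 marked promoters with the pentamer had NF-Y-ChIP by the 1 kb criterion. With a share of this size, 0 of 5 does not set the cytosolic and mitochondrial genes apart. The difference between the lists was not tested, because both were chosen with results of these data known. All 14 ER genes had an H3K4me3-ChIP peak, with a median of 57.0-fold.

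**Figure D4:**
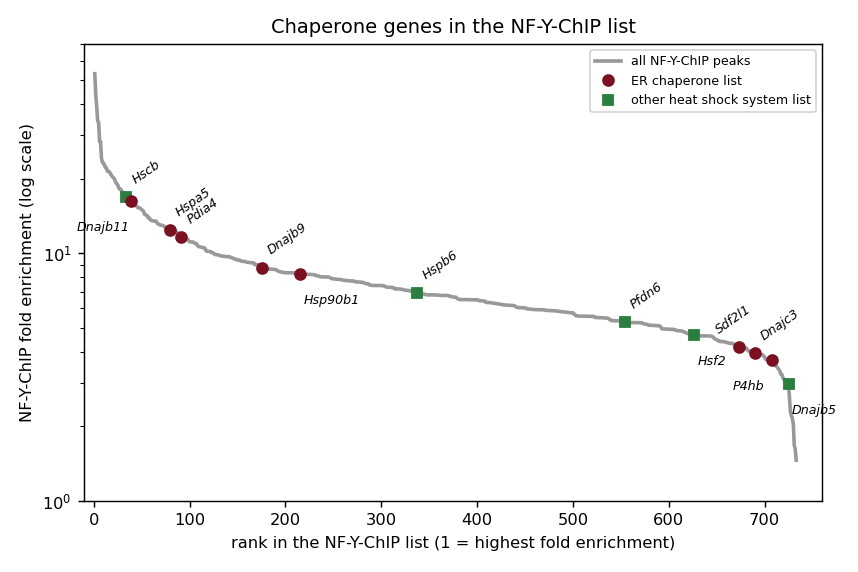
Fold enrichment (vertical axis, log scale) of the 733 NF-Y-ChIP peaks by rank (horizontal axis), with the genes of the ER list as circles and of the further heat shock list as squares. Hscb and Dnajb11 stand near the top at ranks 34 and 39 and Dnajb5 near the end at rank 725, and none of the 10 chaperone genes appears on the line.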

How the data were processed

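Cortices of mouse embryos (E13.5) gave 3 libraries, of which 2 have a peak list. No list of the input was used here. Before deposit, reads were trimmed (Trimmomatic) and mapped to mm10, the GRCm38 build, using Bowtie 2 (2.2.8 in the submitters' processing notes). Peaks were then called by the authors with MACS2 (2.1.2), with a limit of p < 0.001 for the antibody against NF-YC and of q < 0.05 for that against H3K4me3. Input was the negative control of the study, and whether the peak call used it is not given in the sources used here. In the deposited lists, fold enrichment is a ratio, summit signal over local background, the deposited −log10 values are those of each p-value and q-value, and the deposited score is 10 times 1 of them, rounded down. The lists were told apart by this score, which followed the p-value in all 733 NF-Y-ChIP peaks and the q-value in all 18816 H3K4me3-ChIP peaks. Values were used as deposited, and the read depth is unknown.

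Genes and transcript starts were from GENCODE M21, and sequences from the GRCm38.p6 genome of RefSeq. The representative start was that of the protein-coding transcript ranked first by APPRIS principal tag, CCDS, basic tag, support level and length. Cct6a has no protein-coding transcript there, and the 5′ end of the gene was used. Overlap was counted from 1 bp. The genes named were the 10 members, genes sharing a peak with them, and the genes of the further list with an NF-Y-ChIP peak. Other names, among them Tecr as the gene of the nearest peak and the genes of the ER list, were chosen after values were seen. The members and lists were chosen with earlier results of these data known. One cortical marker gene is not reported here. With 1 library per antibody no test was made. On simulated data the motif, target and window functions gave the right answer in all 1000 cases each. Python 3.11.15, NumPy 2.4.6, SciPy 1.17.1 and matplotlib 3.10.9 were used.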

Additional observations from a re-analysis of the deposited data

How the results depend on the processing

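The number of chaperone genes with an NF-Y-ChIP peak was 0 under all 5 alternatives set. These also called few protein-coding genes, 3.54% with only peaks of q < 0.05, 1.9% with only the stronger 50% of peaks, 3.17% with summits within 1 kb of a transcript start, and 3.47% and 4.03% with upstream limits of 1 and 10 kb. The number with an H3K4me3-ChIP peak was 10 with the stronger 50% of peaks (46.9% of protein-coding genes), summits within 1 kb (62%) and an upstream limit of 1 kb (64.4%). The number with CCAAT or ATTGG upstream was 3 in place of 5 in a window of 150 bp (26.8% of protein-coding genes) and for the extended form of the site (11.2%). It was 7 in 500 bp (53.8%), 4 from the 5′ end of the gene (36%), and 5 in a window that ran 100 bp past the start (40.9%), an alternative chosen after seeing the data. The number with a heat shock element was 5 in place of 2 with 1 mismatch allowed (11.4%), and 1 when the 5′ end of the gene was used as the start (0.906%). In the latter case the element lies downstream of the annotated 5′ end of Hspd1 and so outside its window. Windows of 250 and 1000 bp gave 2 (0.362%) and 3 (1.78%). Of the 63 further genes, 2 in place of 5 had an NF-Y-ChIP peak among the stronger 50% of peaks (1.9% of protein-coding genes), a list with fewer peaks. The motif at NF-Y-ChIP summits and the overlap of NF-Y-ChIP with H3K4me3-ChIP peaks gave no value for the 10 genes, because they had no NF-Y-ChIP peak. No paired analysis was possible because each antibody has 1 library. The peak lists hold no read counts, so signal below the calling threshold could not be examined.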
